A study of Mus musculus with 15 samples.

Results

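The genes described here are the chemokines and chemokine receptors measured in mouse mammary epithelial cells after injection of 2 drugs that act on chromatin. They were chosen by name: every gene whose only symbol in the platform annotation begins with Ccl, Cxcl, Ccr or Cxcr followed by a number, apart from 1 that is not analysed here. This gave 43 genes of 12393, of which 29 are ligands (18 CC and 11 CXC) and 14 are receptors (9 CC and 5 CXC). Where a gene had several probe sets, the brightest on average over the 15 arrays was used. Female C57BL/6 mice were injected intraperitoneally with PBS as the control, with 5-azacytidine (AzaC), an inhibitor of DNA methylation, or with valproic acid (VPA), an inhibitor of histone deacetylases. The mice were labelled virgin (9 weeks) or pregnant (day 21), no transgene or other allele is named, and no dose is given. The glands were digested to enrich epithelial cells before RNA was hybridised to Affymetrix arrays. For the pregnant label there were 2 PBS, 3 AzaC and 3 VPA arrays, and for the virgin label 2 PBS, 3 AzaC and 2 VPA arrays. Nothing in the labels says whether replicates are separate mice, so each p-value rests on the scatter between these samples, which may be technical. With groups this small the precision is limited.

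Chemokines are small secreted proteins that direct the movement of leukocytes, and they fall into CC and CXC families by the spacing of their first cysteines. Their receptors span the membrane and signal through inhibitory G proteins and arrestins. Some ligands are made steadily by epithelium and stroma, others are induced by inflammatory signals through NF-kB. In the mammary gland macrophages and eosinophils accompany the growth of the ducts, and Ccl28 from the epithelium draws antibody-secreting plasma cells that carry Ccr10 into the lactating gland.

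Epithelial transcripts were high on every array. The mean of 9 measured luminal markers (such as Krt8, Krt18 and Epcam) lay between 11.09 and 12.49 on the deposited log2 scale. That of 8 myoepithelial markers lay between 9.38 and 10.27. Transcripts of leukocytes were also present, with Ptprc, the leukocyte antigen CD45, between 6.89 and 9.59. So were those of stroma: the mean of 10 fibroblast markers lay between 8.87 and 11.09 and that of 10 endothelial markers between 7.1 and 8.78. The stage labels were not borne out by milk genes. Csn2 (beta-casein) read 13.69 to 13.94 on the 7 arrays labelled virgin and 13.69 to 14.03 on the 8 labelled pregnant, and Wap (whey acidic protein) read 13.41 to 14.06 and 13.53 to 14.18. Stage is therefore given below as a label only. The median of all probe sets lay between 7.22 and 7.47 on each array. Of the 43 genes, 30 had a mean under 6.1, the 30th percentile of gene means, so most of the family sat in the dim part of the scale. In all, 6 genes were listed at 0 on at least 1 array: Ccl24 on 9, Ccl22 on 6, and Ccl3, Ccl7, Ccl12 and Ccl20 on 1 each.

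Because AzaC blocks the methylation of CpG and many inflammatory chemokines have NF-kB sites near their start, RefSeq promoter windows (build GRCm38.p6, from 250 bases before to 50 bases after the start site) were read for the genes that passed the test below and for Cxcl2, the neighbour of Cxcl1 on chromosome 5. Windows were found for 30 of the 43 genes, 34 windows in all. They are printed 5′ to 3′ on the gene's strand, and capitals mark matches on either strand to 2 NF-kB type patterns (GGG, 2 free bases, TTTCC, and GGGA, 2 free bases, TTCC) or to TGANTCA (AP-1). The NF-kB patterns overlap, since GGGAATTTCC fits both.
Cxcl1 (chr5:90890995-90891294, plus strand): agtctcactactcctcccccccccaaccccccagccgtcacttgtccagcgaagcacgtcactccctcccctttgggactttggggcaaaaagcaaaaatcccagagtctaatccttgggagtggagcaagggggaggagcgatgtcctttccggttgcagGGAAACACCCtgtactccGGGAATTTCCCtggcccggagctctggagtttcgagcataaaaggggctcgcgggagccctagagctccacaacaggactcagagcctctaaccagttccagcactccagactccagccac
Cxcl2 (chr5:90903649-90903948, plus strand): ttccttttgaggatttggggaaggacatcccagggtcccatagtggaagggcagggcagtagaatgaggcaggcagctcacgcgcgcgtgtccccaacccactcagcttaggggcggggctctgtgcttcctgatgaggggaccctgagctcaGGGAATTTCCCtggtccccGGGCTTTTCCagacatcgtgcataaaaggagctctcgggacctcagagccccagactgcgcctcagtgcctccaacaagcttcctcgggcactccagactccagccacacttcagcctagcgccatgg
Ccl6 (chr11:83593038-83593337, minus strand): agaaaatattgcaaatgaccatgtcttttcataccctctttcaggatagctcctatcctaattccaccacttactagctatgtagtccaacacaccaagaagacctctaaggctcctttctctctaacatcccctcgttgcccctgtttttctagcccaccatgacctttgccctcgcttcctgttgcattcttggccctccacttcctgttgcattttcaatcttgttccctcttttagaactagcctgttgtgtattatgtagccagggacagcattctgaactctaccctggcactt
Ccr2 (chr9:124101933-124102232, plus strand): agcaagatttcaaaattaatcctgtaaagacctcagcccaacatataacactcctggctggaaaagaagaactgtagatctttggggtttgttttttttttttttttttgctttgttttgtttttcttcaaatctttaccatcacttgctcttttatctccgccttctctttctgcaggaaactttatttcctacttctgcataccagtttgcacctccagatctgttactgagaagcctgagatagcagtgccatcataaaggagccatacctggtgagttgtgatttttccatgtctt
Ccl27a, inner start (chr4:41770163-41770462, minus strand): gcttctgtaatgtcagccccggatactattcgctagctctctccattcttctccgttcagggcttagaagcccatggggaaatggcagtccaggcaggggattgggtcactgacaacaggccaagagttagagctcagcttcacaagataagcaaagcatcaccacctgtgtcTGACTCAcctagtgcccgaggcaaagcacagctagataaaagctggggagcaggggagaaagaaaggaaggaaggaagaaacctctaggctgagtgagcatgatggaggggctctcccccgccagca
Ccl27a, outer start (chr4:41774052-41774351, minus strand): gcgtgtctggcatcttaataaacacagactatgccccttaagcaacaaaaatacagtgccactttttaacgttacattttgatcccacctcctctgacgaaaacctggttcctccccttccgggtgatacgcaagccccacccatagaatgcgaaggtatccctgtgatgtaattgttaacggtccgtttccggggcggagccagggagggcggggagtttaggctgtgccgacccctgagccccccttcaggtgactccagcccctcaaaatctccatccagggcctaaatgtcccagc

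Cxcl1 held GGAAACACCC at position -89 from its start site and GGGAATTTCC at -71, and Cxcl2 held GGGAATTTCC at -97 and GGGCTTTTCC at -78. The first pattern was found in 5 of the 34 chemokine windows (Ccl20, Ccl9, Ccr3, Cxcl1 and Cxcl2) and in 1.63% of all 32851 windows in the RefSeq table. The second was found in 4 (Ccl1, Ccr3, Cxcl1 and Cxcl2) and in 1.47% of all windows. The AP-1 pattern was found in 6 chemokine windows, among them TGACTCA at -77 in the inner Ccl27a window, and in 7.81% of all windows. TTCNNNGAA, a STAT pattern, was found in 3 and in 8.3%, and TATAAA in 8 and in 13.6%. The windows held between 1 and 52 CpG, with a median of 3 against 7 over all windows. Cxcl1 held 10, Cxcl2 held 11, the Ccl27a windows shown held 5 and 12, Ccl6 held 2 and Ccr2 held 1. Another Ccl27a window (chr4:41774127-41774426, minus strand) held 11 and is not printed. It lies further upstream than the window labelled outer and overlaps it. A match describes the letters, not a bound site.

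With AzaC in the arrays labelled pregnant, 2 of the 43 genes rose against PBS and none fell: Ccl27a, a ligand of Ccr10 made by skin and other epithelia, and Cxcl1, which draws neutrophils through Cxcr2. With VPA 3 rose and none fell: Ccl27a again, Ccl6, a ligand of monocytes and macrophages, and Ccr2, the receptor that brings monocytes into tissue. All tests were limma's moderated test over all 12393 genes with Benjamini-Hochberg adjustment, at an adjusted p under 0.05. Of all genes, 7.57% passed with AzaC and 5.98% with VPA, so the shares among chemokine genes, 4.65% and 6.98%, were near the background. Of all genes 3.76% rose and 3.81% fell with AzaC, and 3.64% rose and 2.34% fell with VPA. The median difference of the 43 genes was 0.08 with AzaC and 0.21 with VPA, against 0.04 and 0.06 over all genes. Both drug groups were set against the same 2 PBS arrays, so agreement between the drugs is partly built in.

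**Figure D1:**
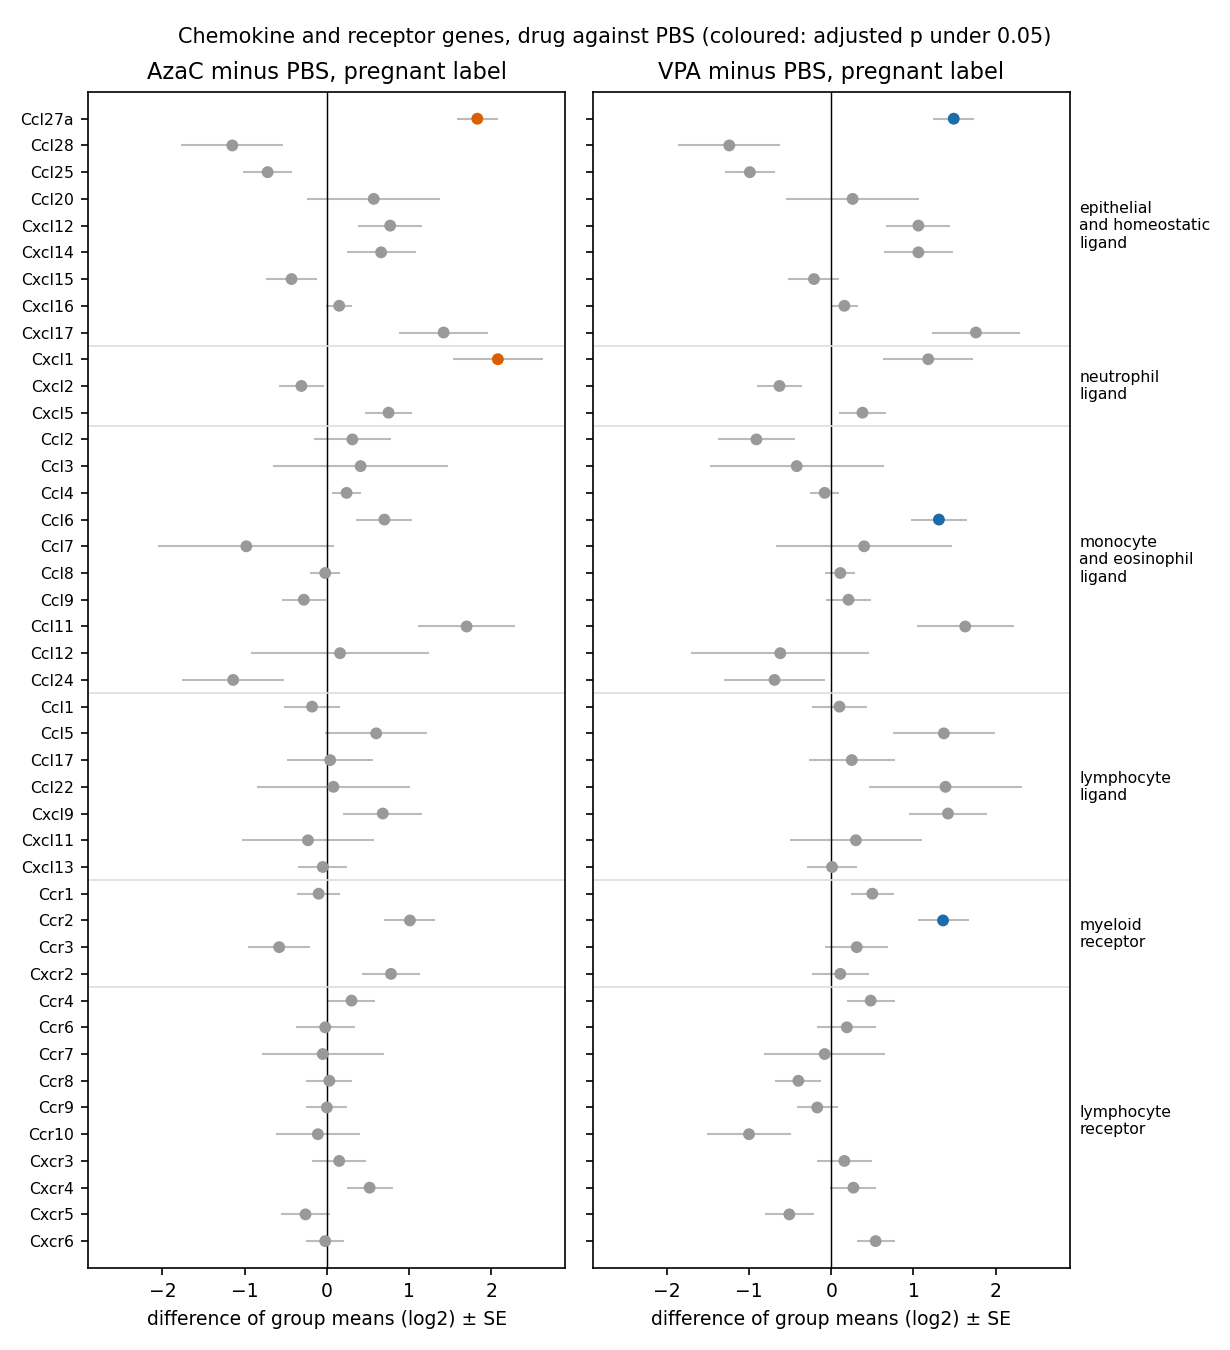
Difference of group means, drug minus PBS, on the log2 scale with the standard error (SE) for each of the 43 genes in the arrays labelled pregnant, in order of role. Coloured points passed an adjusted p of 0.05 in limma (2 genes with AzaC, 3 with VPA) and grey points did not. The coloured points all lie to the right of 0.

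At an unadjusted p under 0.05 the family counted 8 genes with AzaC and 12 with VPA, against 26.2% and 24.9% of all genes. Without regard to the test, all AzaC arrays lay above both PBS arrays for 11 genes and below for 4, against 23.5% and 20.9% of all genes. For VPA these counts were 16 and 7, against 25.7% and 17.6%. Among the 9 epithelial and homeostatic ligands, 1 rose with either drug and differences ran from -1.15 to 1.83 with AzaC and from -1.24 to 1.76 with VPA. Among the 3 neutrophil ligands, 1 rose with AzaC and 0 with VPA. Among the 10 monocyte and eosinophil ligands, 0 rose with AzaC and 1 with VPA, and among the 4 myeloid receptors the counts were also 0 and 1. None of the 7 lymphocyte ligands and none of the 10 lymphocyte receptors passed, the lowest adjusted p in limma being 0.405 and 0.259 with AzaC and 0.101 and 0.173 with VPA. The arrays hold RNA of mixed cells, so more cells of a type and more RNA per cell cannot be told apart in any of these values.

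Ccl27a, read by probe set 1434962_x_at, stood at 4.91 and 5.12 on the pregnant PBS arrays, at 7.23, 6.33 and 6.96 with AzaC and at 6.52, 6.63 and 6.35 with VPA. All 6 drug arrays lay above both controls. On the arrays labelled virgin it read 5.37 and 4.86 with PBS, 5.68, 5.83 and 5.92 with AzaC and 4.97 and 4.98 with VPA. There the AzaC arrays were the highest and the VPA arrays lay within the range of PBS, and no virgin array reached the lowest pregnant drug array. The difference in the pregnant arrays was 1.83 ± 0.25 (SE) with AzaC (3.54-fold, 95% interval 1.28 to 2.37, adjusted p = 0.01 in limma) and 1.49 ± 0.25 (SE) with VPA (2.8-fold, interval 0.94 to 2.03, adjusted p = 0.013). Each call was lost when a PBS array was left out: with AzaC the adjusted p became 0.0764 without replicate 1 and 0.0624 without replicate 2, and with VPA 0.0993 and 0.0906.

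Other probe sets of this locus did not show that rise. RefSeq places Ccl27a at chr4:41769467-41774225, where it overlaps Il11ra1. Near-identical copies of it are annotated in the mouse. An ending in _x_at marks a probe set with probes that also match other transcripts, and the endings _s_at and _a_at mark sets shared by several transcripts or forms. Probe set 1419188_s_at, annotated to 5 symbols of the Ccl27 family, read 9.06 and 8.91 with PBS, 8.93, 8.68 and 8.28 with AzaC and 8.49, 8.72 and 9 with VPA in the pregnant arrays. The groups overlapped, and the difference was -0.36 ± 0.21 (SE) with AzaC (adjusted p = 0.347 in limma over 22626 probe sets) and -0.25 ± 0.21 with VPA (0.548). The other shared set, 1430375_a_at, read from 6.94 to 7.81 over all 15 arrays and differed by 0.05 and -0.04 (adjusted p 0.926 and 0.95). In the same fit over probe sets the Ccl27a set kept an adjusted p of 0.0166 with AzaC and 0.018 with VPA. Which transcripts of the locus the rise belongs to was not tested.

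**Figure D2:**
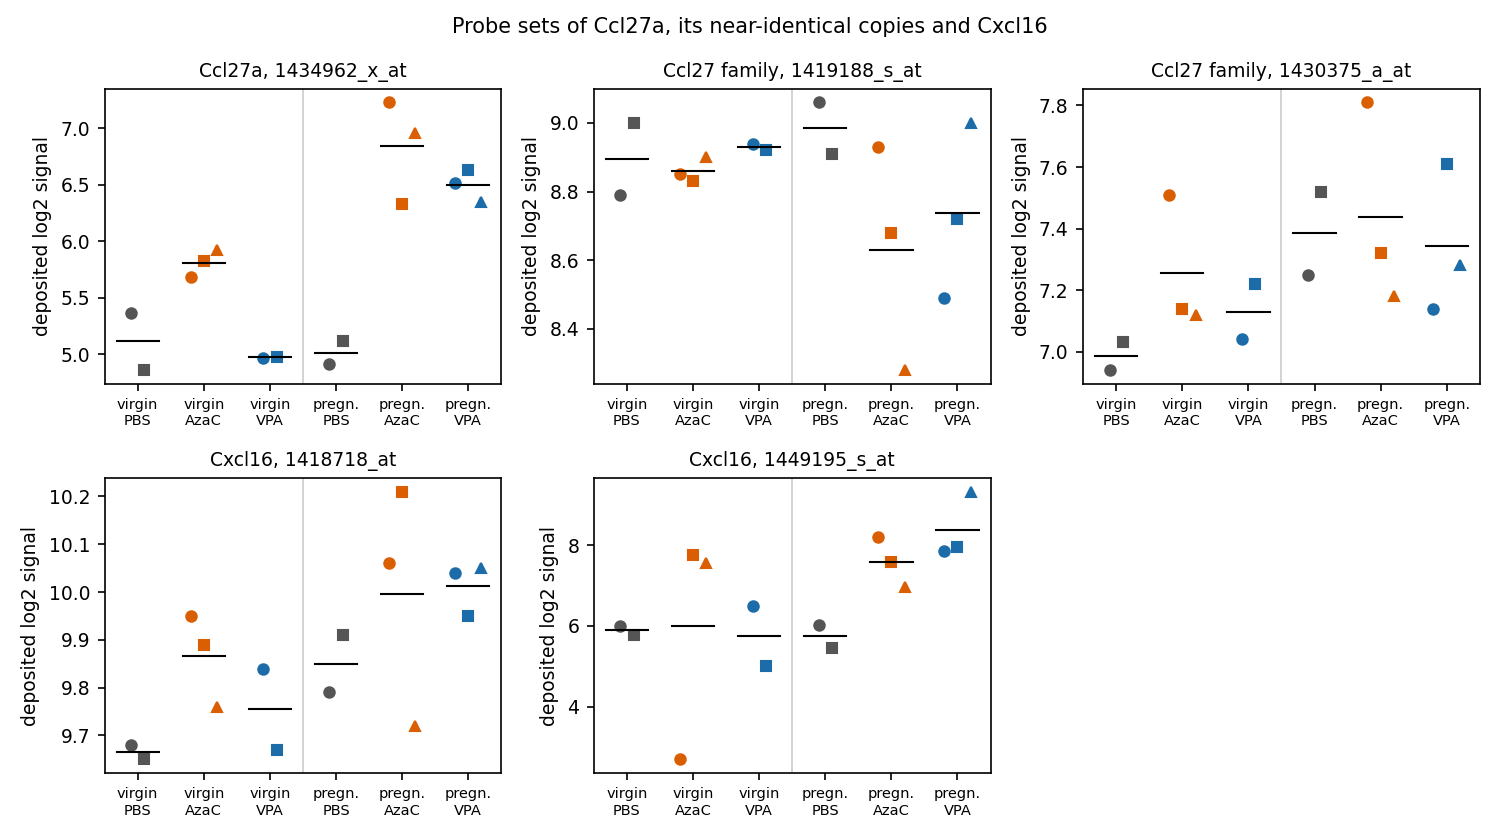
Deposited log2 signal on each array for 1 probe set of Ccl27a, 2 shared by the Ccl27 family and 2 of Cxcl16, by stage label and injection; circles, squares and triangles are replicates 1, 2 and 3 and bars the group mean. The Ccl27a set 1434962_x_at lies at 6.33 or above on the 6 pregnant drug arrays while the pregnant groups overlap on the family sets. Cxcl16 is flat on 1418718_at (9.65 to 10.21) and spread from 2.7 to 9.32 on 1449195_s_at.

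Cxcl1, the main mouse neutrophil attractant, read 4.36 and 3.99 on the pregnant PBS arrays, 6.91, 6.02 and 5.85 with AzaC and 5.58, 4.56 and 5.92 with VPA. Every drug array lay above both controls. With the virgin label it read 4.06 and 2.13 with PBS, 4.98, 4.22 and 4.68 with AzaC and 3.46 and 3.84 with VPA. All 3 virgin AzaC arrays again lay above PBS, where the 2 PBS arrays were far apart. In the pregnant arrays the difference was 2.08 ± 0.55 (SE) with AzaC (4.24-fold, 95% interval 0.87 to 3.3, adjusted p = 0.0431 in limma) and 1.18 ± 0.55 with VPA (2.26-fold, interval -0.03 to 2.39, adjusted p = 0.213). The AzaC call did not survive leaving out any 1 of the 5 arrays: the adjusted p was 0.157 and 0.206 without PBS replicates 1 and 2, and 0.125, 0.0501 and 0.0861 without AzaC replicates 1, 2 and 3.

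The other neutrophil ligands did not pass the threshold. Cxcl2, whose window holds the same 10-letter match as Cxcl1, read 5.57 and 5.64 with PBS, 5.47, 5.38 and 5.04 with AzaC and 4.9, 4.86 and 5.16 with VPA in the pregnant arrays. Both drug groups lay below PBS, by -0.31 ± 0.27 (SE, adjusted p = 0.508 in limma) and -0.63 ± 0.27 (adjusted p = 0.171). Cxcl5, an epithelial neutrophil ligand, differed by 0.75 ± 0.29 (adjusted p = 0.133) with AzaC and 0.38 ± 0.29 (adjusted p = 0.461) with VPA. Their receptor Cxcr2 differed by 0.78 ± 0.35 (adjusted p = 0.186) and 0.11 ± 0.35 (adjusted p = 0.885).
The mean over 10 measured neutrophil markers lay between 5.3 and 5.44 on the pregnant PBS arrays, 5.52 and 5.57 with AzaC and 5.29 and 5.63 with VPA. The list runs from Camp, at 0 to 2.13 over the 15 arrays, to Ltf, at 13.23 to 14.12, so its mean does not describe each marker. With each drug 1 of 10, Mmp9, rose past the threshold, against 3.76% and 3.64% of all genes. Immediate early genes that respond to tissue digestion were, like Cxcl1, higher on the pregnant drug arrays than on pregnant PBS. Their list mean was 7.9 to 8.22 with PBS, 9.13 to 9.82 with AzaC and 8.99 to 9.48 with VPA. Of 15 genes 6 rose with AzaC and 3 with VPA, against 3.76% and 3.64% of all genes. On virgin AzaC replicates 1, 2 and 3 the list mean was 7.71, 9.1 and 9.12, while Cxcl1 read 4.98, 4.22 and 4.68. Of these arrays, the lowest in the list mean was the highest in Cxcl1. The part of these genes in the rise of Cxcl1 was not tested.

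**Figure D3:**
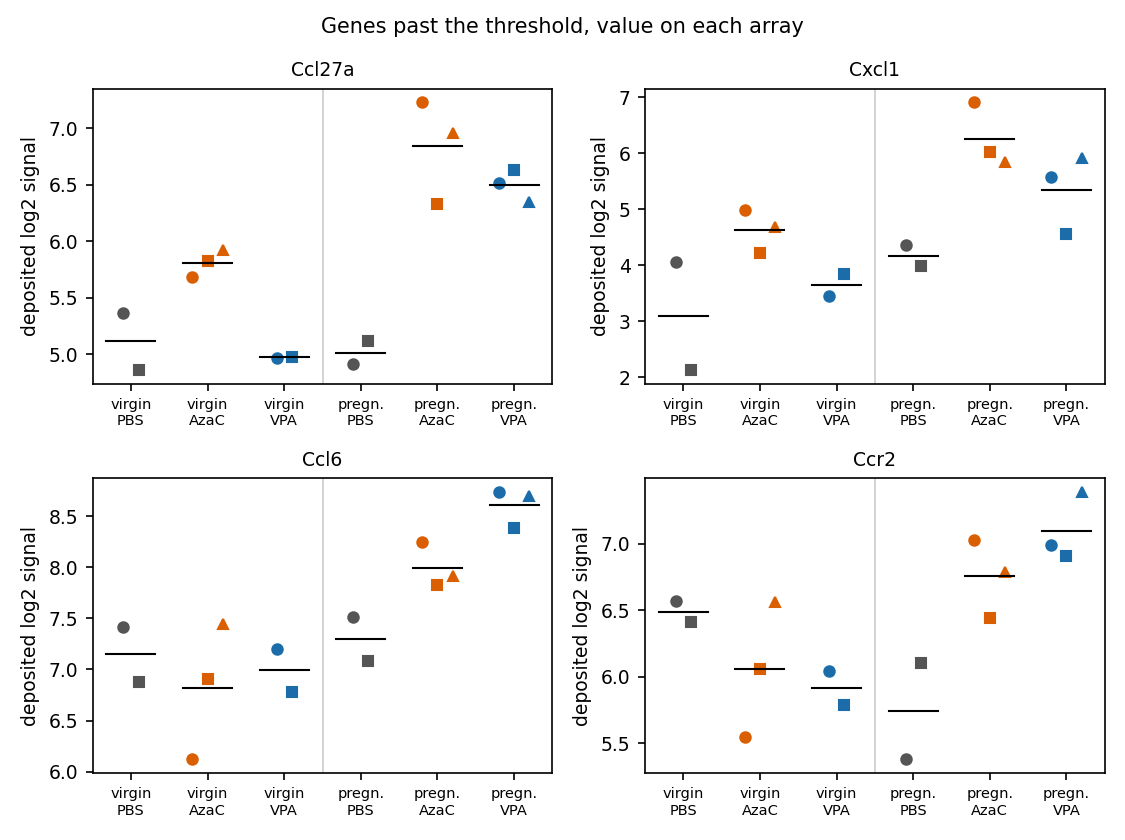
Deposited log2 signal on each array for Ccl27a, Cxcl1, Ccl6 and Ccr2, by stage label and injection; circles, squares and triangles are replicates 1, 2 and 3 and bars the group mean. All 6 pregnant drug arrays lie above both pregnant PBS arrays in each panel, and in the virgin arrays the 3 injections overlap for Ccl6.

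Ccl6 read 7.51 and 7.08 on the pregnant PBS arrays, 8.25, 7.83 and 7.91 with AzaC and 8.74, 8.38 and 8.7 with VPA. Both drug groups lay above PBS and the VPA group above the AzaC group. In the virgin arrays it read 7.42 and 6.88 with PBS, 6.12, 6.91 and 7.44 with AzaC and 7.2 and 6.78 with VPA, and the groups overlapped. The pregnant difference was 1.31 ± 0.34 (SE) with VPA (2.48-fold, 95% interval 0.57 to 2.06, adjusted p = 0.0464 in limma) and 0.7 ± 0.34 with AzaC (1.63-fold, adjusted p = 0.218). The VPA call was lost without any 1 of its 5 arrays, with adjusted p of 0.137 and 0.254 without PBS replicates 1 and 2 and of 0.102, 0.0817 and 0.103 without VPA replicates 1, 2 and 3. The other Ccl6 probe set, 1420249_s_at, differed by 0.18 ± 0.35 with VPA (adjusted p = 0.825) and -0.45 ± 0.35 with AzaC (adjusted p = 0.492), and over the mean of both sets the VPA difference was 0.75 (adjusted p = 0.115). The call was also lost with quantile normalization (0.0559), with values under 5 set to 5 (0.0546) and with only the groups compared (0.0546), and it held in 3 of 14 alternatives.

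Ccr2 read 5.38 and 6.1 on the pregnant PBS arrays, 7.03, 6.44 and 6.79 with AzaC and 6.99, 6.91 and 7.39 with VPA, so that all drug arrays lay above PBS. Under the virgin label it read 6.57 and 6.41 with PBS, 5.55, 6.06 and 6.56 with AzaC and 6.04 and 5.79 with VPA, so that the VPA arrays lay below PBS and the AzaC arrays overlapped it. The pregnant difference was 1.36 ± 0.31 (SE) with VPA (2.56-fold, 95% interval 0.68 to 2.04, adjusted p = 0.0321 in limma) and 1.01 ± 0.31 with AzaC (2.02-fold, adjusted p = 0.069). The VPA call was lost without any 1 of its 5 arrays (adjusted p 0.224 and 0.093 without PBS replicates 1 and 2, and 0.0666, 0.0636 and 0.0821 without VPA replicates 1, 2 and 3), and with the replicate number as a block (0.0687; for Ccl6 0.0944). It was also lost with only the groups compared (0.0837) and with the mean of all probe sets (0.152), and it held in 5 of 14 alternatives. The other 2 Ccr2 probe sets differed by 2.01 ± 0.99 and -0.22 ± 1.28 with VPA (adjusted p 0.267 and 0.953). The ligand of Ccr2, Ccl2, read 4.86 and 5.37 with PBS, 5.61, 5.33 and 5.35 with AzaC and 4.87, 4.54 and 3.22 with VPA. Its groups overlapped, with differences of 0.31 ± 0.47 (adjusted p = 0.724) and -0.91 ± 0.47 (adjusted p = 0.263).

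The mean level of macrophage markers was, like Ccl6 and Ccr2, higher on the pregnant drug arrays than on pregnant PBS. The mean of the 13 measured markers (such as Csf1r, Cd68 and C1qa) was 8.04 to 8.35 on the pregnant PBS arrays, 8.77 to 8.99 with AzaC and 8.98 to 9.21 with VPA. In all, 11 of 13 lay above PBS on every AzaC array and 12 of 13 on every VPA array, against 23.5% and 25.7% of all genes. The other marker with VPA, Adgre1, lay below PBS on every VPA array (10.01 and 9.78 with PBS, 9.64, 9.54 and 9.7 with VPA). None of the 13 passed the threshold in limma against PBS with either drug, and none was at 0 on any array. In the virgin arrays the list mean was 8.14 to 8.74 with PBS, 7.78 to 8.91 with AzaC and 8.27 to 8.34 with VPA. Virgin AzaC replicates 2 and 3, at 8.82 and 8.91, lay in the range of the pregnant AzaC arrays. Ccl6 read 6.91 and 7.44 on them, against 7.42 and 6.88 with virgin PBS. Ccr2 read 6.06 and 6.56 on them, against 6.57 and 6.41. The part of macrophage number in the rise of Ccl6 and Ccr2 was not tested. Ccl11 (eotaxin, the ligand of Ccr3 on eosinophils) read 4.68 and 3.98 with PBS, 5.41, 6.23 and 6.46 with AzaC and 6.81, 5.83 and 5.23 with VPA. It lay above PBS on all drug arrays, by 1.7 ± 0.59 (adjusted p = 0.0971) and 1.63 ± 0.59 (adjusted p = 0.121). Ccl7, another Ccr2 ligand, differed by -0.98 ± 1.07 and 0.4 ± 1.07 (adjusted p 0.616 and 0.863). Ccl24 was listed at 0 on 9 arrays and has no usable difference.

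Cxcl12, Cxcl14 and Cxcl17, ligands of stroma and epithelium, lay above PBS on all pregnant drug arrays without passing the threshold. Cxcl12, the ligand of Cxcr4 that holds cells in their niche, read 7.85 and 8.06 with PBS, 8.52, 8.53 and 9.12 with AzaC and 9.12, 8.7 and 9.22 with VPA. Cxcl14 read 10.63 and 10.24 with PBS, 10.95 to 11.37 with AzaC and 11.43 to 11.58 with VPA. Cxcl17, a mucosal chemokine, read 8.63 and 7.77 with PBS, 9.48 to 9.69 with AzaC and 9.48 to 10.33 with VPA. Neither drug group overlapped PBS for any of the 3 genes. The differences with AzaC were 0.77 ± 0.39, 0.66 ± 0.42 and 1.42 ± 0.54 (adjusted p 0.238, 0.36 and 0.127 in limma). With VPA they were 1.06 ± 0.39, 1.06 ± 0.42 and 1.76 ± 0.54 (adjusted p 0.126, 0.15 and 0.08). The other probe sets of Cxcl12 and Cxcl14 differed in the same direction, by 1.44 and 0.88 with AzaC and 1.14 and 1.44 with VPA. On the other Cxcl14 set the AzaC arrays overlapped PBS, with AzaC replicate 1 at 8.91 and PBS replicate 1 at 8.95.
Fibroblast markers, whose cells are a known source of Cxcl12, had list means of 9.61 to 9.64 with PBS, 9.88 to 10.71 with AzaC and 10.19 to 11.09 with VPA. All 10 fibroblast markers had differences above 0 with both drugs, against 53% and 54.5% of all genes, with medians of 0.57 and 0.94. Of these, 6 with AzaC and 9 with VPA lay wholly above PBS, against 23.5% and 25.7% of all genes. Past the threshold, 0 of 10 rose with AzaC and 1 (Dcn) with VPA, against 3.76% and 3.64% of all genes. Endothelial markers, whose cells also make Cxcl12, had list means of 7.1 to 7.74 with PBS, 7.98 to 8.78 with AzaC and 7.95 to 8.68 with VPA. All 10 had differences above 0 with both drugs, against 53% and 54.5% of all genes, with medians of 0.94 and 0.86. With each drug 6 of 10 lay wholly above PBS, against 23.5% and 25.7% of all genes. Of the 10, 1 (Cldn5) rose past the threshold with each drug, against 3.76% and 3.64% of all genes. The part of both cell types in the Cxcl12 values was not tested. Luminal markers had list means of 11.23 to 11.28 with PBS, 12.17 to 12.49 with AzaC and 12.34 to 12.44 with VPA. Of 9 luminal markers 1 (Kit) and 2 (Kit and Cdh1) rose past the threshold, against 3.76% and 3.64% of all genes. The luminal mean lay at 12.15 and 12.18 on virgin AzaC replicates 2 and 3. The part of luminal markers in the values of Ccl27a and of these ligands was not tested.

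Among the virgin AzaC arrays, replicate 1 stood apart for these 3 ligands. It read 7.5 for Cxcl12, 9.51 for Cxcl14 and 7.55 for Cxcl17, the lowest of all 15 arrays in each case. The other two virgin AzaC arrays read 8.82 and 9.02, 11.32 and 11.13, and 9.57 and 9.54, within or near the range of the pregnant drug arrays. The virgin PBS arrays read 8.81 and 8.37, 10.22 and 10.35, and 8.37 and 7.98. The virgin VPA arrays read 7.89 and 7.82, 10.65 and 10.34, and 8.35 and 9.12. The same array had the lowest luminal mean (11.09) and the lowest macrophage mean (7.78) of the 15, and what sets it apart was not tested.

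**Figure D4:**
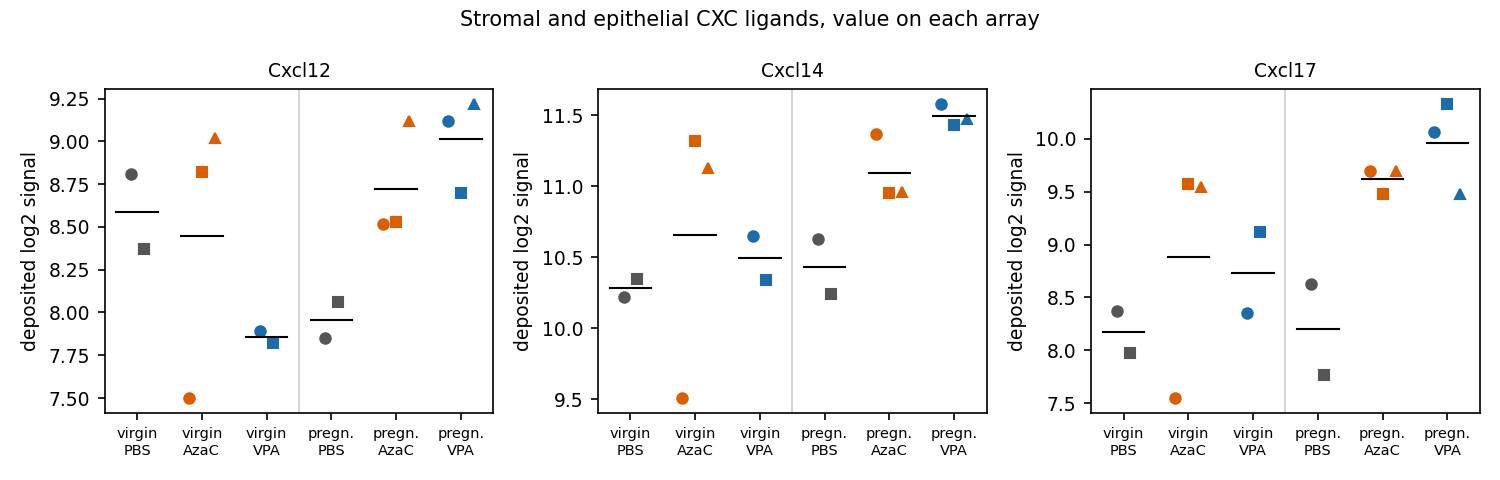
Deposited log2 signal on each array for Cxcl12, Cxcl14 and Cxcl17, by stage label and injection; circles, squares and triangles are replicates 1, 2 and 3 and bars the group mean. In each panel the pregnant drug arrays lie above both pregnant PBS arrays, and virgin AzaC replicate 1 lies lowest of all 15 arrays while the other two virgin AzaC arrays lie high.

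Cxcl16, a membrane-bound ligand of Cxcr6, gave 2 different readings. The probe set with the higher mean, 1418718_at, lay between 9.65 and 10.21 on all 15 arrays and differed by 0.15 ± 0.16 (SE) with AzaC and 0.16 ± 0.16 with VPA in the pregnant arrays (adjusted p 0.621 and 0.581 in limma). The other, 1449195_s_at, read 6.03 and 5.46 with PBS, 8.19, 7.59 and 6.96 with AzaC and 7.84, 7.94 and 9.32 with VPA. On that set all drug arrays lay above PBS, by 1.83 ± 1.22 and 2.62 ± 1.22, and neither passed (adjusted p 0.409 and 0.241). In the virgin arrays it read 6.01 and 5.77 with PBS, 2.7, 7.76 and 7.55 with AzaC and 6.48 and 5.01 with VPA, with AzaC replicate 1 again the lowest. RefSeq places Zmynd15 across Cxcl16. Which reading is the better was not tested.

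Ccl28 and Ccl25, epithelial ligands of mucosal lymphocytes, had lower means with both drugs without passing the threshold. Ccl28 read 5.86 and 5.44 on the pregnant PBS arrays, 4.31, 5.54 and 3.64 with AzaC and 4.44, 5.11 and 3.68 with VPA. Its AzaC arrays overlapped PBS and its VPA arrays lay below, with differences of -1.15 ± 0.62 (adjusted p = 0.27 in limma) and -1.24 ± 0.62 (adjusted p = 0.246). The other Ccl28 probe set, 1450218_at, read 4.44 and 5.13 with PBS, 2.76, 4.38 and 4.02 with AzaC and 4.01, 4.06 and 5.3 with VPA. It lay below PBS on every AzaC array and overlapped PBS with VPA, with differences of -1.06 ± 0.58 (adjusted p = 0.304 over all probe sets in limma) and -0.33 ± 0.58 (adjusted p = 0.808). Its receptor Ccr10 differed by -0.11 ± 0.51 (adjusted p = 0.925) and -1 ± 0.51 (adjusted p = 0.249). Ccl25 read 6.03 and 6.17 with PBS, 5.86, 5.11 and 5.18 with AzaC and 5.12, 5.01 and 5.21 with VPA. It lay below PBS on all drug arrays, by -0.72 ± 0.3 (adjusted p = 0.159) and -0.99 ± 0.3 (adjusted p = 0.0757). Ccl20, the ligand of Ccr6, differed by 0.57 ± 0.81 and 0.26 ± 0.81, and Cxcl15 by -0.43 ± 0.31 and -0.21 ± 0.31, with adjusted p between 0.411 and 0.884.

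None of the ligands of lymphocytes passed the threshold with either drug. Ccl5, a ligand of T cells and monocytes, read 6.29 and 6.06 with PBS, 6.51, 6.74 and 7.07 with AzaC and 7.34, 8.16 and 7.13 with VPA. The 3 groups did not overlap, and the differences were 0.6 ± 0.62 (adjusted p = 0.589 in limma) and 1.37 ± 0.62 (adjusted p = 0.197). Cxcl9, an interferon-induced ligand of Cxcr3, differed by 0.68 ± 0.48 (adjusted p = 0.405) and 1.42 ± 0.48 (adjusted p = 0.101). Cxcl13, the B cell ligand of Cxcr5, lay between 7.28 and 7.86 on the pregnant arrays and differed by -0.05 and 0.01. Among receptors, Cxcr4 differed by 0.52 ± 0.28 (adjusted p = 0.259) and 0.27 ± 0.28 (adjusted p = 0.601), and Ccr7, which leads cells to lymph nodes, by -0.05 ± 0.74 and -0.08 ± 0.74. The mean of 13 T and NK cell markers was 4.98 to 5.2 with PBS, 4.71 to 5.1 with AzaC and 5.17 to 5.35 with VPA, and that of 7 B cell and plasma cell markers 6.56 to 6.74, 6.25 to 6.69 and 6.74 to 7.39.

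A further probe set, 1419426_s_at, is annotated to 9 symbols that include the Ccl21 family, ligands of Ccr7 made by lymph node stroma and lymphatic vessels, and so is not among the 43 genes. It was listed at 0 on all 4 PBS arrays. It read 7.86 on virgin AzaC replicate 3, 5.38 and 2.5 on pregnant VPA replicates 1 and 2, 5.16 on virgin VPA replicate 2 and 0.89 on pregnant AzaC replicate 3, and was listed at 0 on the others. The 3 arrays with the highest values were also the highest of the 15 in Cd79a, a part of the B cell receptor (8.79 on virgin AzaC replicate 3, 7.29 on pregnant VPA replicate 1 and 7.62 on virgin VPA replicate 2), and in Ms4a1, the B cell antigen CD20 (7.73, 7.21 and 7.17). Ccl5 was highest on virgin AzaC replicate 3 too, at 8.4. The part of lymph node tissue in these values was not tested.

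**Figure D5:**
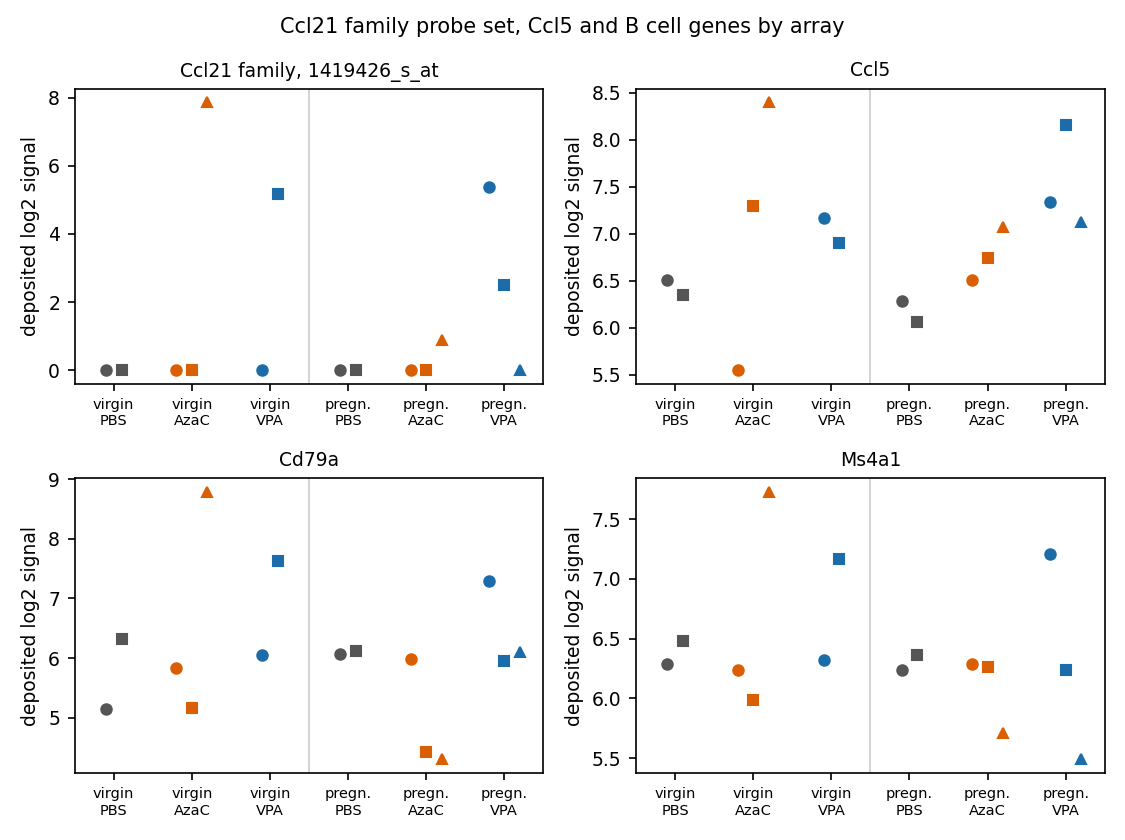
Deposited log2 signal on each array for the Ccl21 family probe set, Ccl5 and the B cell genes Cd79a and Ms4a1, by stage label and injection; circles, squares and triangles are replicates 1, 2 and 3. Virgin AzaC replicate 3 is the highest array in each panel (7.86, 8.4, 8.79 and 7.73), and the Ccl21 family set is listed at 0 on all 4 PBS arrays.

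AzaC and VPA were compared directly. In the pregnant arrays 0 of 43 genes passed, as did 0% of all genes, and 4 chemokine genes (Ccl2, Cxcr6, Ccr3 and Ccr1) had an unadjusted p under 0.05 in limma, against 3.78% of all genes. Ccl2 differed by 1.22 ± 0.42 (SE, AzaC minus VPA), Cxcr6 by -0.56 ± 0.21 and Ccr3 by -0.89 ± 0.34, each with an adjusted p of 1. For the genes called against PBS the 95% intervals were -0.15 to 0.83 for Ccl27a, -0.18 to 1.99 for Cxcl1, -1.28 to 0.06 for Ccl6 and -0.95 to 0.27 for Ccr2. These intervals leave room for differences of about the size seen against PBS in Cxcl1 and Ccl6, so the drugs are not shown to act alike. The AzaC arrays lay wholly above VPA for 4 genes and below for 6, against 2.52% and 5.54% of all genes. Between the drugs in the virgin arrays 0 of 43 passed, 0% of all genes passed, and 5 chemokine genes had an unadjusted p under 0.05, against 6.56% of all genes. Ccl27a was the first of them, by 0.84 ± 0.25 (adjusted p = 0.695), followed by Ccl22 (2.66 ± 0.93, adjusted p = 0.739) and Ccl20 (1.98 ± 0.81, adjusted p = 0.744). All AzaC arrays lay above VPA for 6 genes and below for 2, against 13.1% and 13.7%.

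Under the virgin label neither drug gave a call in the family. With AzaC 0 of 43 genes passed in limma, as did 0% of all genes, and 5 chemokine genes had an unadjusted p under 0.05, against 6.85% of all genes. Ccl22, a ligand of Ccr4 on regulatory T cells, was listed at 0 on both PBS arrays and read 2.48, 3.17 and 4.83 with AzaC (unadjusted p = 0.00304 and adjusted p = 0.594 in limma). Since the control is listed at 0, no fold is given. Ccl27a differed by 0.7 ± 0.25 (SE, adjusted p = 0.714) and Cxcl1 by 1.53 ± 0.55 (adjusted p = 0.714). All AzaC arrays lay above PBS for 5 genes and below for 3, against 11.5% and 6.8% of all genes. With VPA 0 of 43 passed against 0.00807% of all genes, and 4 had an unadjusted p under 0.05, against 6.87%. Ccr7 read 4.08 and 5.54 with PBS and 2.01 and 1.29 with VPA, a difference of -3.16 ± 0.81 (adjusted p = 0.455). Ccl20 read 4.06 and 3.53 with PBS and was listed at 0 on one VPA array and at 2.45 on the other (adjusted p = 0.607), and Cxcl15 differed by -0.79 ± 0.34 (adjusted p = 0.705). All VPA arrays lay above PBS for 3 genes and below for 9, against 20.8% and 15%.

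Between the stage labels, calls came after VPA. Of 43 genes, 3 rose in the pregnant VPA arrays against the virgin VPA arrays, against 6.66% of all genes, 3.7% higher and 2.96% lower: Ccl6 by 1.62 ± 0.34 (SE, adjusted p = 0.0254 in limma), Ccl27a by 1.53 ± 0.25 (adjusted p = 0.0148) and Ccr2 by 1.18 ± 0.31 (adjusted p = 0.0463). The pregnant VPA arrays lay above the virgin ones for 13 genes and below for 3, against 26.2% and 19.8%. In the same comparison 11 of the 13 macrophage markers lay wholly above and 1 below. Of these markers 1 (Cd163) rose past the threshold, by 2.17 ± 0.47 (adjusted p = 0.0273 in limma), as did 4 of 10 fibroblast markers, against 3.7% of all genes. The part of these cell types in the calls was not tested. The Ccl27a call was lost without virgin VPA replicate 1 (adjusted p = 0.14) or replicate 2 (0.0712). The Ccl6 call was lost without pregnant VPA replicates 1 (0.0669) or 3 (0.0614) and virgin VPA replicates 1 (0.153) or 2 (0.144). The Ccr2 call was lost without any 1 of the pregnant VPA replicates (0.0872, 0.0796 and 0.111) or virgin VPA replicates (0.196 and 0.206). It was also lost with quantile normalization (0.0581), with values under 5 set to 5 (0.0538), with the mean of all probe sets (0.0557) and with only the groups compared (0.0576), and it held in 3 of 14 alternatives. These arrays also enter the comparisons with PBS.

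With PBS 0 of 43 genes passed between the stage labels, against 0.00807% of all genes, and 3 had an unadjusted p under 0.05 in limma, against 4.2%. Ccl11 read 4.68 and 3.98 with the pregnant label and 6.89 and 5.2 with the virgin label, a difference of -1.71 ± 0.64 (adjusted p = 1). Ccl25 differed by 0.78 ± 0.33 and Ccr2 by -0.75 ± 0.34 (adjusted p = 1 for both). Both pregnant PBS arrays lay below both virgin ones for 14 genes and above for 3, against 13.4% and 15% of all genes. With AzaC 0 of 43 passed, against 1.23% of all genes (0.121% higher and 1.11% lower with the pregnant label), and 7 had an unadjusted p under 0.05, against 18.4%. Ccl27a differed by 1.03 ± 0.22 (adjusted p = 0.0516) and Ccl6 by 1.17 ± 0.3 (adjusted p = 0.0886). Ccl22 read 0, 1.67 and 0 with the pregnant label against 2.48, 3.17 and 4.83 with the virgin label (adjusted p = 0.112). The pregnant AzaC arrays lay above for 4 genes and below for 3, against 8.81% and 14%.

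Whether a drug difference depended on the stage label was tested by its interaction. For AzaC 0 of 43 genes passed in limma, against 0% of all genes, and 6 had an unadjusted p under 0.05, against 12.8%. The pregnant difference exceeded the virgin one by 1.45 ± 0.44 (SE) for Ccr2 (adjusted p = 0.219), by 1.13 ± 0.35 for Ccl27a (0.226) and by 2.51 ± 0.83 for Ccl11 (0.242). For VPA 0 of 43 passed, against 0.315% of all genes, and 8 had an unadjusted p under 0.05, against 18.9%. The excess was 1.62 ± 0.37 for Ccl27a (adjusted p = 0.0744), 1.93 ± 0.46 for Ccr2 (0.0764) and 1.79 ± 0.58 for Cxcl12 (0.138). The calls in the pregnant arrays are therefore not shown to differ from the virgin ones.

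Genes that act with chemokines were read from 4 lists. Of 21 other genes of the system, 2 rose and 1 fell with AzaC and 2 rose with VPA in the pregnant arrays. The counts of all 4 lists stand against 3.76% of all genes that rose and 3.81% that fell with AzaC, and 3.64% and 2.34% with VPA. Ackr3, the scavenger receptor that clears Cxcl12, rose from 7.65 ± 0.02 (SD, n = 2) with PBS to 8.82 ± 0.21 (SD, n = 3) after AzaC and to 9.08 ± 0.02 (SD, n = 3) after VPA (adjusted p 0.0417 and 0.0263 in limma). Cmtm3 also rose, by 1.35 ± 0.37 (SE) with AzaC and 1.39 ± 0.37 with VPA. Cmtm6 was the gene that fell with AzaC, with a difference of -0.82 ± 0.22. Of 26 genes of receptor signalling, 3 rose and 1 fell with AzaC and 2 rose with VPA. Stat3 rose by 2.15 ± 0.43 (SE) and 1.89 ± 0.43 and Ptk2b, a kinase downstream of the receptors, by 1.21 ± 0.24 and 1.25 ± 0.24. With AzaC, Arrb1 also rose, by 1.56 ± 0.39. Rgs18, a regulator of G proteins, fell by 0.97 ± 0.25 with AzaC.

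Of 28 genes that induce chemokines, 4 rose with AzaC (3.76% of all genes) and 5 with VPA (3.64% of all genes), and none fell. Cd14, the co-receptor for bacterial lipopolysaccharide, rose by 3.71 ± 0.75 (SE) and 3.61 ± 0.75 (adjusted p 0.0193 and 0.025 in limma). The NF-kB subunits Relb and Rela rose by 2.8 ± 0.58 and 1.29 ± 0.24 with AzaC and by 2.96 ± 0.58 and 1.26 ± 0.24 with VPA. Jun also rose with AzaC, by 2.86 ± 0.71. Ifngr2 and Myd88 rose with VPA, by 1.43 ± 0.36 and 0.82 ± 0.2. Of 15 genes that restrain NF-kB or degrade chemokine transcripts, 5 rose with AzaC and 3 with VPA, and none fell, against the same shares. Socs3 rose by 3.62 ± 0.29 and 3.66 ± 0.29 (adjusted p 0.000683 and 0.000602). Zc3h12a, an RNase that destroys cytokine transcripts, rose by 4.85 ± 0.61 and 4.56 ± 0.61 (adjusted p 0.00683 and 0.00825). Tnip1 rose by 0.69 ± 0.19 and 0.71 ± 0.19. Zfp36l1 and Dusp1 rose with AzaC, by 1.36 ± 0.33 and 1.57 ± 0.37. None of the genes in the 4 lists passed in the virgin arrays with either drug. Virgin AzaC replicate 1 stood apart for some of them. Cd14 read 12.2 and 10.62 with virgin PBS and 10.35, 13.24 and 13.35 with virgin AzaC replicates 1, 2 and 3. Relb read 5.64 and 4.59 against 4.6, 6.23 and 6.93. Socs3 did not follow this, at 6.93 and 6.88 against 8.52, 8.78 and 8.54. The lack of calls therefore does not show a lack of response under the virgin label.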

How the data were processed

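Messenger RNA of mammary epithelial cells from 6 groups of mice was read on 15 single-colour Affymetrix arrays. The authors deposited 1 table of 22690 probe sets, taken here as log2 signal because its values run from 0 to about the top of that scale; the base of the logarithm and the summary, background and normalization methods are not given in the sources used here. Values were used as deposited. The platform annotation of 2016 gave 20380 probe sets 1 gene symbol, 691 several and 1619 none or a control; the first kind gave 12393 genes, each read from its brightest probe set. One mean per group was fitted in R 4.3.3 by limma 3.58.1 (lmFit, then eBayes; 9 residual and 2.31 prior degrees of freedom), with two-sided tests, Benjamini-Hochberg adjustment over all genes and a threshold of 0.05. Differences are on the log2 scale. The fit was tested on simulated data. Named were genes past the threshold, the 3 smallest p in each comparison with fewer, and a fixed set by role, of which Ccl19 and Ccl21a have no single-symbol value here; Ccl11, Cxcl17 and the other genes named beyond it were chosen after their values were seen. Genes of the other lists that passed against PBS in the pregnant arrays were named, apart from most of those that respond to digestion. Of those that passed in other comparisons, only some were named. The genes and lists were chosen with earlier results of these data known. Promoter windows came from RefSeq (GRCm38.p6). The alternatives were quantile normalization, a filter on dim genes, a floor at 5, the mean of all probe sets, trend and robust variance, fitting the compared groups alone, a replicate block, a Gapdh covariate for RNA quality and leaving out arrays; leaving out the 3 arrays with the highest Gapdh difference was chosen after seeing the data. Figures were drawn with matplotlib 3.10.9.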

Additional observations from a re-analysis of the deposited data

Results flagged for a closer look

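The probe set of the Ccl21 family drew attention because it carried a signal in data that no comparison used, above the level of the controls. It reached 7.86 on virgin AzaC replicate 3 and was listed at 0 on all 4 PBS arrays. The B cell gene Pou2af1 read 7.16 on that array, 5.86 on pregnant VPA replicate 1 and 5.77 on virgin VPA replicate 2, the other arrays with values over 5 in the Ccl21 family set. The cause was not tested.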

How the results depend on the processing

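The differences recomputed under the alternatives, those called or with the 3 smallest p in a comparison, did not change sign (some were 0 with the floor at 5), and those of the other genes named were not recomputed. Of the called differences, Ccr2 between stage labels after VPA passed in 3 of 14 alternatives, Ccl6 and Ccr2 with VPA in 3 and 5 of 14, Ccl6 and Ccl27a between stage labels after VPA in 8 of 14 and 11 of 13, Cxcl1 in 7 of 13 and Ccl27a against PBS in 10 of 13 with AzaC and 11 of 13 with VPA. With AzaC in the pregnant arrays (2 calls), 1 gene passed with the filter on dim genes (Ccr2, since Ccl27a and Cxcl1 are themselves left out by it), 0 passed with only the groups compared, and 0 to 1 passed when each array was left out. With VPA (3 calls), 1 passed with the mean of all probe sets, 1 with the replicate block, 1 with only the groups compared and 1 without the 3 arrays of the highest Gapdh difference, in each case Ccl27a, and 0 to 1 with each array left out. Between stage labels after VPA (3 calls), 1 passed with the replicate block, 1 without those 3 arrays (Ccl27a) and 0 to 2 with each array left out. After AzaC (0 calls), 1 passed with the filter on dim genes (Ccl6), 1 with the floor at 5, 1 with trend and robust variance and 1 with the Gapdh covariate (Ccl27a in these), and 0 to 2 with each array left out (Ccl27a and Ccr3 without pregnant AzaC replicate 2). With the floor at 5, 1 gene, Cxcl15, passed for AzaC and for VPA in the virgin arrays, between stage labels with PBS, and in both interactions (1 each). Cxcl15 read over 5 only on pregnant PBS replicate 1 (5.06) and the virgin PBS arrays (5.38 and 5.28). The floor set it to 5 on every other array, which leaves no scatter within the drug groups, so these calls are not read as changes in Cxcl15. In the VPA interaction 1 gene, Ccr2, passed with the filter and with trend and robust variance. Every other comparison stayed at 0 calls with each array left out. Some alternatives also hold fewer genes or arrays in the fit, and the causes of these changes were not tested.

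The replicate numbers are not shown to pair the arrays. Deviations of same-numbered arrays from their group means correlated at -0.174 to 0.333, over 0.1 in 6 of 33 pairs. Of 15 arrays 6 correlated best with their own number. In groups of 2 arrays these deviations mirror each other, so the correlations cannot exclude pairing. With the replicate block, calls over all genes went from 938 to 466 with AzaC and from 741 to 241 with VPA in the pregnant arrays. The arrays with the highest Gapdh difference were virgin PBS 2 (1.23), pregnant AzaC 1 (0.85) and pregnant VPA 3 (0.82). Most of the family is dim, which limits what these arrays can show.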

Other observations

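A probe set annotated to 10 symbols that include the Ccl19 family was listed at 0 on all 15 arrays.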
